A study of Mus musculus with 4 samples.

Results

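The cyclin-dependent kinase inhibitors are the proteins that hold back the kinases driving the cell cycle. The 7 mouse genes Cdkn1a, Cdkn1b, Cdkn1c, Cdkn2a, Cdkn2b, Cdkn2c and Cdkn2d were chosen by name from a table of 46517 genes. The rule used no measured value, but the family was picked with earlier results of these data known. The libraries came from LSK cells (Lin- Sca-1+ c-Kit+), the blood-forming fraction with the stem cells and early multipotent progenitors. There were 2 libraries from Setd2D/D mice, by the usual notation those with the H3K36 methyltransferase gene Setd2 deleted on both alleles, and 2 from Setd2f/f mice, which carry the floxed alleles. All mice were C57BL/6 and 8 to 10 weeks old, and neither genotype had a treatment on its label. The sources used here do not give the Cre driver, the deleted exons or how many mice each library pooled. Nor do they say whether replicates were different mice, and p-values therefore cover the library-to-library spread alone, some or all of which may be technical.

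The family falls into 2 classes. The Cip/Kip proteins, p21 (Cdkn1a), p27 (Cdkn1b) and p57 (Cdkn1c), bind whole cyclin and kinase complexes, mainly those of CDK2. The Ink4 proteins, p16 (Cdkn2a), p15 (Cdkn2b), p18 (Cdkn2c) and p19 (Cdkn2d), bind CDK4 and CDK6 and keep them from their D-type cyclins, so that the retinoblastoma protein stays active. In mouse blood formation, p57 and p27 are known for keeping stem cells quiescent, p21 for responding to p53, and p18 for restraining the self-renewing divisions of stem cells.

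Of the 7 genes, Cdkn2c stood apart, with a lower level in Setd2D/D than in Setd2f/f LSK cells (5.85 ± 0.438 against 20.8 ± 7.44 TPM, SD, n = 2 each, a ratio of mean levels of 0.281). TPM, is a share of a library's transcripts corrected for transcript length, so that levels can be compared between genes. The genes Cdkn1a, Cdkn1b, Cdkn1c and Cdkn2d had ratios between 0.811 and 1.18 and overlapped between the genotypes. Separation of the genotypes, seen in 1 of the 5 members above 0, was found in 44.3% of all genes tested. Cdkn2a and Cdkn2b were listed at 0 in every library. Of the 7 genes, 5 passed the filter, which asked for 1 TPM in 2 or more libraries, and entered the limma fit across 14755 genes on log2(TPM + 1), a scale on which low genes show less change than they have. These 5 are also the members in the authors' deposited table of the comparison.

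The targeted gene and the sort markers set the frame. Setd2 was at 43.4 and 49.5 TPM in Setd2D/D cells, against 78.9 and 68.0 TPM in Setd2f/f cells. Its value covers the whole gene, so transcripts lacking the deleted part may still be counted. Each library had 14360 to 14610 genes at 1 TPM or more, and genes above 0 numbered 17185 and 19448 in the Setd2D/D libraries, against 19896 and 20192 in the Setd2f/f libraries. The read depth is unknown. Setd2D/D replicate 1 stood apart: across genes, its log2(TPM + 1) values correlated with those of Setd2D/D replicate 2 at r = 0.9645 and with the Setd2f/f libraries at 0.9652 and 0.9651, whereas Setd2D/D replicate 2 correlated with either Setd2f/f library at 0.9736 or more and the Setd2f/f libraries with each other at 0.9814. The 7 markers of the LSK gate and its stem cell subsets used here (Ly6a, Kit, Cd34, Flt3, Slamf1, Cd48 and Procr) passed the filter, with a summed level of 1336 and 1244 TPM in Setd2D/D and 1692 and 1628 TPM in Setd2f/f. They did not all lie on one side. Ly6a, which encodes Sca-1, was at 46.5 and 80.6 TPM in Setd2D/D and 127.5 and 123.8 TPM in Setd2f/f, and Kit was at 301 and 285 TPM in Setd2D/D and 224 and 249 TPM in Setd2f/f. Ly6a and Cd34 are the 2 of the 7 past an FDR of 0.05 in the authors' deposited table, both lower in Setd2D/D. Of all genes in that table, 3.15% passed, and 1.64% passed with a lower level in Setd2D/D.

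**Figure D1:**
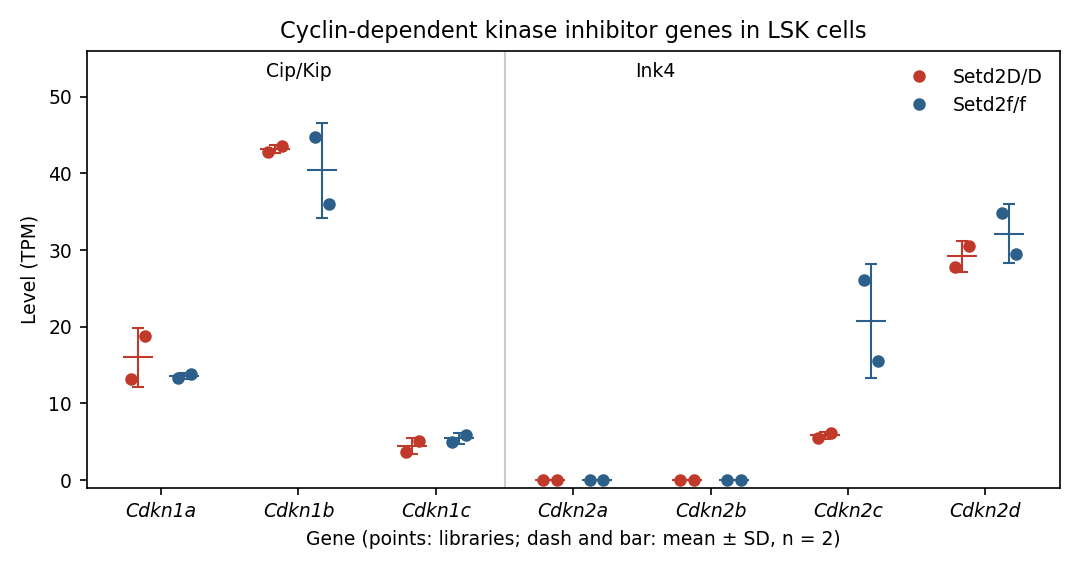
Level in TPM (vertical axis) of each of the 7 inhibitor genes (horizontal axis) in the 2 Setd2D/D libraries (red) and the 2 Setd2f/f libraries (blue), with the mean as a dash and the SD as a bar. Cdkn2c is at 5.54 and 6.16 TPM in Setd2D/D, below 26.1 and 15.6 TPM in Setd2f/f, while every other gene above 0 overlaps between the genotypes.

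Cdkn1b, which encodes p27, was the most abundant inhibitor in both genotypes. It was at 42.8 and 43.6 TPM in Setd2D/D cells, against 44.8 and 36.0 TPM in Setd2f/f cells. Both Setd2D/D values lay between the Setd2f/f values. The limma log2 change was 0.10 with a 95% interval of -0.32 to 0.53 (adjusted p = 0.848), and the authors' deposited table gives 0.11 with an FDR of 0.858. The interval leaves room for changes of up to about 0.5 log2 units upward. Cdkn1b lies on chromosome 6 at 134920401 to 134925513 on the plus strand of GRCm38, the assembly also called mm10.

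Cdkn1a, which encodes p21, a direct target of p53, was at 13.2 and 18.8 TPM in Setd2D/D cells, against 13.3 and 13.9 TPM in Setd2f/f cells. Setd2D/D replicate 2 was the highest, and Setd2D/D replicate 1 was at the level of the Setd2f/f libraries. The limma log2 change was 0.20 with a 95% interval of -0.43 to 0.84 (adjusted p = 0.795), and without Setd2D/D replicate 2 it was -0.04. In the authors' deposited table the log2 change is 0.19 with an FDR of 0.885. Cdkn1a spans chromosome 17, 29090976 to 29100727, on the plus strand. A gene model on the opposite strand, AC167363.2, overlaps it, and whether the libraries kept strand is not given.

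Cdkn1c, the maternally expressed gene of p57, was the least abundant of the 5 genes above 0. It was at 3.70 and 5.14 TPM in Setd2D/D cells, against 4.95 and 5.95 TPM in Setd2f/f cells. Setd2D/D replicate 1 was the lowest and the groups overlapped. The limma log2 change was -0.26 with a wide 95% interval of -1.07 to 0.55 (adjusted p = 0.794), and the authors' deposited table gives -0.26 with an FDR of 0.919. Cdkn1c lies on chromosome 7, 143458339 to 143461050, on the minus strand, and the antisense model Gm44732 overlaps it.

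The promoters of the p53-responsive and the most abundant member are shown because each holds a motif of a factor known to act on it, in a gene whose level overlapped between the genotypes. Sequences are from RefSeq on GRCm38.p6, read in the direction of the gene and ending just before the first base of an annotated exon, and distances are counted from the RefSeq start. Capitals mark, for Cdkn1a, a match to the p53 consensus (a pair of decamers without spacer, at most 1 mismatch), 32 to 51 bases before the upstream start, in the window chr17:29090729-29090975 on the plus strand. For Cdkn1b they mark the letters TGTTTGT, a core bound by FOXO factors, 239 to 245 bases before the start, in the window chr6:134920151-134920400 on the plus strand.
Cdkn1a: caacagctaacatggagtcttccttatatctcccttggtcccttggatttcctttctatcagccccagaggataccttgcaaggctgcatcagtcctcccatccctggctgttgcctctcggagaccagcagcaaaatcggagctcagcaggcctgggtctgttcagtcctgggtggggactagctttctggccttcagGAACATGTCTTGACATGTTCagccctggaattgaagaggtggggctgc
Cdkn1b: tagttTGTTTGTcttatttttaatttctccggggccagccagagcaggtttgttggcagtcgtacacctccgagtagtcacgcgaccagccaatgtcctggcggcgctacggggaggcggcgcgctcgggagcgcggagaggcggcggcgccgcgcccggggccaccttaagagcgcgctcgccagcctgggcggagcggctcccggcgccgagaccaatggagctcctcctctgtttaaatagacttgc
Among 32851 RefSeq windows of 300 bases, 0.0883% held such a p53 match and 9.95% held the letters TGTTTAC or TGTTTGT on either strand. A match describes the letters and is not a bound site.

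Cdkn2c, which encodes p18, was the member that differed. It was at 5.54 and 6.16 TPM in Setd2D/D cells, against 26.1 and 15.6 TPM in Setd2f/f cells. Both Setd2D/D libraries were low and close together, while the Setd2f/f libraries were 1.68-fold apart, and the smallest gap between a library of each genotype was 2.52-fold. Against Setd2f/f replicate 1 alone the Setd2D/D mean was 0.224 of the level, and against Setd2f/f replicate 2 alone it was 0.376. In bulk cells, fewer cells that express the gene and less RNA per cell cannot be told apart.

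The limma log2 change of Cdkn2c was -1.63 with an SE of 0.31, a 95% interval of -2.45 to -0.81 and an unadjusted p of 0.00396. Over all 14755 genes the adjusted p was 0.276, so that Cdkn2c did not pass limma at 0.05. That threshold was passed by 10 genes, or 0.0678% of those tested, and by 0 of the 5 members. By unadjusted p, 1 of the 5 was under 0.05, as were 11.2% of all genes tested. The authors' deposited table gives Cdkn2c a log2 change of -1.49 (FDR 3.71e-05), the 1 member of 5 past an FDR of 0.05. Of the 23955 genes in the authors' deposited table, 754 (3.15%) passed, and 1.64% passed with a lower level in Setd2D/D. As in Cdkn2c, 27.6% of the genes tested had both Setd2D/D libraries below both Setd2f/f libraries. A ratio of mean TPM as low as that of Cdkn2c was rarer, at 1.64% of the genes tested. An exact permutation test over 2 against 2 libraries cannot go below a 2-sided p of 0.33.

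**Figure D2:**
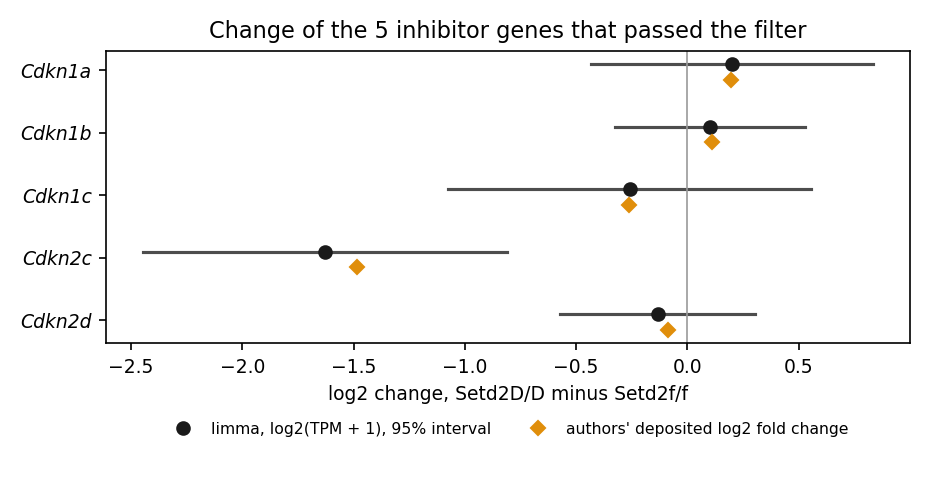
Log2 change, Setd2D/D minus Setd2f/f (horizontal axis), of the 5 inhibitor genes that passed the filter (vertical axis), from limma on log2(TPM + 1) with 95% intervals (black) and from the authors' deposited table (orange diamonds). The interval of Cdkn2c runs from -2.45 to -0.81, and those of the other 4 genes include 0.

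The 2 sources gave Cdkn2c different sizes of change. Its log2 ratio of mean TPM was -1.83, which is 0.35 lower than the log2 change of the authors' deposited table. For the other 4 members the 2 values differed by -0.05 to 0.04, and over 14607 genes the median difference was -0.05, with 3.90% of genes at or below the difference seen for Cdkn2c. Cdkn2c has 2 annotated transcripts with different starts, the short Cdkn2c-201 with 1106 nt of exon and the long Cdkn2c-202 with 2471 nt, whose first exon is untranslated. Both encode p18, and the gene-level values do not separate them.

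Cdkn2c lies on chromosome 4 at 109660876 to 109667189 on the minus strand. The stretch before the start of the short transcript is shown because this gene carried the difference and the stretch holds a core bound by E2F factors. The stretch also has another base composition than the window of the long transcript. It covers chr4:109665373-109665609 on the minus strand, from RefSeq on GRCm38.p6, and lies in the first intron of the long transcript. Capitals mark the letters TTTCGCG, a core bound by E2F factors, 194 to 200 bases before the start.
Cdkn2c: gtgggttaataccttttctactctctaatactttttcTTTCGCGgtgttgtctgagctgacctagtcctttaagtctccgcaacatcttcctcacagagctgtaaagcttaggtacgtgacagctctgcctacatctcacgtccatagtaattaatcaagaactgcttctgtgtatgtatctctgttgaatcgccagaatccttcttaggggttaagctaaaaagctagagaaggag
The letters TTTCGCG or TTTGGCG occurred on either strand in 2.37% of the 32851 RefSeq windows, and in 1 of the 9 windows of the inhibitor genes. This window, counted over its full 300 bases, had 44.0% G and C and 8 CpG dinucleotides, close to the median over all windows of 7 CpG. The window of the other RefSeq start of Cdkn2c had 73.3% G and C, 33 CpG and 4 GC boxes (GGGCGG or its complement). GC boxes were in 35.7% of all windows, and in 7 of the 9 windows of the inhibitor genes. RefSeq windows were found for 6 of the 7 genes.

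Cdkn2d, which encodes the Ink4 protein p19, was the second most abundant inhibitor. It was at 27.7 and 30.6 TPM in Setd2D/D cells, against 34.9 and 29.5 TPM in Setd2f/f cells. The libraries of the 2 genotypes overlapped. The limma log2 change was -0.13 with a 95% interval of -0.57 to 0.31 (adjusted p = 0.804), and the authors' deposited table gives -0.09 with an FDR of 0.932. It lies on chromosome 9, 21288410 to 21291407, on the minus strand.

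Cdkn2a and Cdkn2b, the neighbouring tumour suppressor genes that rise with senescence and that polycomb proteins hold silent in stem cells, were listed at 0 TPM in both Setd2D/D libraries and in both Setd2f/f libraries. The Cdkn2a row covers p16 and the alternative-frame protein Arf together. Of all genes in the table, 48.6% were listed at 0 in all 4 libraries, and the smallest value above 0 was 0.01 TPM. Neither gene is in the authors' deposited table, and no fold change can be given. They lie side by side on chromosome 4 on the minus strand, Cdkn2a at 89274471 to 89294653 and Cdkn2b at 89306299 to 89311039. Their RefSeq windows had between 12 and 45 CpG, against the median of 7 over all windows.

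The order of the levels differed between the genotypes at 1 place. In Setd2D/D it was Cdkn1b, Cdkn2d, Cdkn1a, Cdkn2c and Cdkn1c, and in Setd2f/f Cdkn1b, Cdkn2d, Cdkn2c, Cdkn1a and Cdkn1c. Within each genotype, neighbours in this order did not overlap between their 2 libraries. Some lay close together: the lowest Cdkn2c value in Setd2D/D was 5.54 TPM, beside a highest Cdkn1c value of 5.14 TPM. In Setd2f/f the lowest Cdkn1b value was 36.0 TPM, beside a highest Cdkn2d value of 34.9 TPM, and the lowest Cdkn2c value was 15.6 TPM, beside a highest Cdkn1a value of 13.9 TPM. These order differences were not tested.

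A single scaling factor per library leaves the ratio of the 2 expressed Ink4 genes within that library as it is. Cdkn2d exceeded Cdkn2c 5.01-fold and 4.97-fold in the Setd2D/D libraries, against 1.34-fold and 1.90-fold in the Setd2f/f libraries. Cdkn2c made up 5.96% and 5.91% of the summed TPM of the 7 genes in Setd2D/D, against 21.03% and 15.4% in Setd2f/f. The Ink4 class as a whole made up 35.8% and 35.3% in Setd2D/D, against 49.1% and 44.6% in Setd2f/f. The sum of the 7 genes was 93.0 and 104 TPM in Setd2D/D, against 124 and 101 TPM in Setd2f/f, so that the sums overlapped between genotypes. Without Cdkn2c the sums were 87.5 and 98.1 TPM in Setd2D/D, against 97.9 and 85.3 TPM in Setd2f/f.

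**Figure D3:**
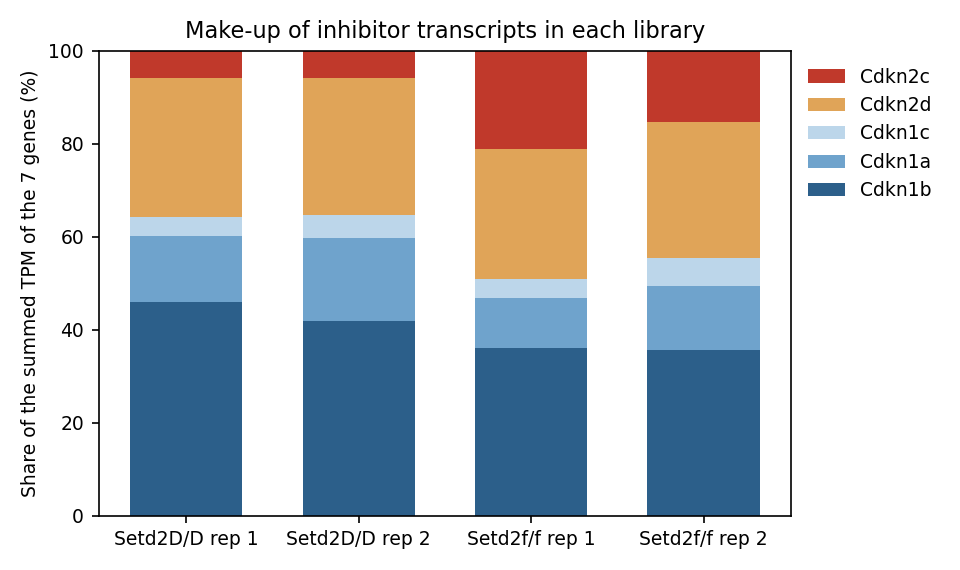
Share in percent of the summed TPM of the 7 inhibitor genes (vertical axis) taken by each gene (colours, Cip/Kip in blues and Ink4 in orange and red) in each library (horizontal axis). Cdkn2c takes 5.96% and 5.91% in the Setd2D/D libraries and 21.03% and 15.4% in the Setd2f/f libraries, while Cdkn2d takes between 28.1% and 29.8% in all 4.

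Summed levels of several cell type marker lists differed between the genotypes beside Cdkn2c. The 10 B lineage markers were all measured, and none was at 0 in all libraries. They summed to between 225 and 319 TPM in Setd2D/D and between 353 and 647 TPM in Setd2f/f. Of these, 7 are lower past an FDR of 0.05 in the authors' deposited table, of which Igll1 and Pax5 overlapped in TPM. For this and the counts below, 3.15% of all genes in that table passed, and 1.64% passed with a lower level in Setd2D/D. The mean of Pax5 was higher in Setd2D/D, at 16.8 TPM against 13.4 TPM in Setd2f/f. The 12 erythroid markers summed to between 778 and 809 TPM in Setd2D/D and between 344 and 537 TPM in Setd2f/f, and 8 of them are higher in the authors' deposited table. Like Cdkn2c, the B lineage, erythroid, megakaryocyte, stromal and endothelial and LSK gate sums were higher in Setd2f/f replicate 1 than in Setd2f/f replicate 2. The granulocyte-monocyte, T and NK and, narrowly, macrophage sums were lower in Setd2f/f replicate 1. Several sums also joined genes that lay on opposite sides. The 12 granulocyte-monocyte markers summed to between 3194 and 4759 TPM in Setd2D/D and between 2485 and 3034 TPM in Setd2f/f, with 4 higher and 1 lower in the authors' deposited table. Mpo made up most of that difference (mean 1652 TPM in Setd2D/D and 879 TPM in Setd2f/f), while Ltf averaged 27.6 TPM in Setd2D/D and 65.1 TPM in Setd2f/f. The sum of the 9 megakaryocyte markers used here, of which Gp6 was at 0 throughout, overlapped, at between 122 and 128 TPM in Setd2D/D and between 115 and 148 TPM in Setd2f/f. Within it Pf4 averaged 39.9 TPM in Setd2D/D and 12.3 TPM in Setd2f/f, while Plek averaged 28.5 TPM in Setd2D/D and 58.6 TPM in Setd2f/f, and Plek and Itga2b are lower in the authors' deposited table. The 10 stromal and endothelial markers summed to between 108 and 116 TPM in Setd2D/D and between 125 and 155 TPM in Setd2f/f, with Emcn and Pdgfrb lower and Tek higher in the authors' deposited table. Pecam1 was the largest part of that sum (mean 77.6 TPM in Setd2D/D and 77.2 TPM in Setd2f/f), and 4 of these 10 markers passed the filter. The 10 macrophage markers summed to between 287 and 301 TPM in Setd2D/D and between 269 and 271 TPM in Setd2f/f. That difference was smaller than the one of Cd68 alone, which averaged 67.2 TPM in Setd2D/D and 29.9 TPM in Setd2f/f. The sum of the 10 T and NK cell markers overlapped, at between 83.5 and 126 TPM in Setd2D/D and between 125 and 131 TPM in Setd2f/f. Nkg7 made up most of it, at 78.7 and 116 TPM in Setd2D/D and 114 and 126 TPM in Setd2f/f. Of these 10 markers, 3 passed the filter. The part of these cells in the level of Cdkn2c was not tested.

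Genes were also compared with each member by their profile over the 4 libraries. The measure keeps the size of change, so a member that varied little lies near many genes and Cdkn2c near few. Among 9976 genes with a mean TPM of at least 5, 5 had deviations from their own mean within 0.2 log2 units (root mean square) of those of Cdkn2c, against 1947 for Cdkn1a, 4150 for Cdkn1b and 5023 for Cdkn2d, and 3005 of 9977 for Cdkn1c. The nearest to Cdkn2c was Xlr4b, a gene of an X-linked cluster (0.0783 log2 units), at 6.36 and 6.46 TPM in Setd2D/D and 26.9 and 18.4 TPM in Setd2f/f. Ltbp3, which encodes a binding protein of latent TGF-beta, followed (0.112 log2 units), at 7.87 and 9.11 TPM in Setd2D/D and 31.8 and 23.9 TPM in Setd2f/f. Ndrg1 was next (0.140 log2 units), at 19.9 and 17.2 TPM in Setd2D/D and 66.5 and 43.3 TPM in Setd2f/f. For the members that overlapped between genotypes, the nearest genes were Lclat1, Smim13 and Dnttip2 for Cdkn1a, Zbtb18, Gemin6 and Picalm for Cdkn1b, Rilpl2, Mrpl34 and Parg for Cdkn1c, and Slc25a27, Actr1a and Clk3 for Cdkn2d. With 4 libraries in 2 genotypes, whose values each gene shares, such likeness is a description.

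Within 100 kb of the 7 genes, 54 different genes are annotated, Cdkn2a and Cdkn2b counted as neighbours of each other, and 26 had a mean of at least 1 TPM. Faf1, 9.4 kb from Cdkn2c, was its 1 neighbour with a mean of at least 1 TPM. It was at 16.9 and 23.7 TPM in Setd2D/D and 24.7 and 19.5 TPM in Setd2f/f, and overlapped between genotypes (limma log2 change -0.13, adjusted p = 0.880). Closer to Cdkn2c, at 3.0 kb, 9630013D21Rik had a mean under 1 TPM. That transcript was at 0 and 0 TPM in Setd2D/D and 1.99 and 0.43 TPM in Setd2f/f (FDR 0.499 in the authors' deposited table). Lockd, a non-coding RNA made 3.6 kb downstream of Cdkn1b, was at 42.1 and 24 TPM in Setd2D/D and 56.1 and 43.0 TPM in Setd2f/f (limma adjusted p = 0.523). Trp53cor1, the p53-induced non-coding RNA beside Cdkn1a, was at 0.820 and 1.74 TPM in Setd2D/D and 1.42 and 1.11 TPM in Setd2f/f. Of the imprinted neighbours of Cdkn1c, Slc22a18 was at 10.7 and 8.10 TPM in Setd2D/D and 8.34 and 8.35 TPM in Setd2f/f, and Phlda2 at 6.78 and 3.90 TPM in Setd2D/D and 7.27 and 3.33 TPM in Setd2f/f. Cars, a transfer RNA synthetase gene 96.2 kb from Cdkn1c, was at 42.2 and 40.8 TPM in Setd2D/D and 25.0 and 30.1 TPM in Setd2f/f. Its limma adjusted p was 0.390, and its FDR in the authors' deposited table is 0.0413. Of the 26 expressed neighbours it alone passed an FDR of 0.05 there, as did 3.15% of all genes in that table. Mtap, the 1 expressed neighbour of Cdkn2a, was at 44.7 and 36.1 TPM in Setd2D/D and 43.0 and 53.7 TPM in Setd2f/f. The expressed neighbours Stk38, Srsf3, Rab44, Rpl35a-ps3, Cpne5, Crebl2, Gpr19, Gm44366, 2810454H06Rik, Ddx47, Nap1l4, Gm23297, Pde4a, Gm16754, Keap1, Atg4d, Kri1 and Slc44a2 did not pass an FDR of 0.05 in the authors' deposited table.

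Partners and regulators of the inhibitors were called at shares near those of all genes. Across 8 lists with 125 genes, 121 passed the filter. Of these, 0 passed limma over all genes, against 0.0678% of all genes tested. A limma unadjusted p under 0.05 was found for 12 (9.92%), against 11.2% of all genes tested. The median log2 change of the listed genes was -0.02, beside -0.06 over all genes tested. Of the 124 listed genes in the authors' deposited table, 3 (2.42%) passed an FDR of 0.05, against 3.15% of all its genes, and all 3 are given as lower in Setd2D/D. These were Pcgf2, E2f2 and Ccnd2.

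Of the cyclins and kinases that the inhibitors bind, 12 of 13 passed the filter, 6 above and 6 below 0 by limma, with a median log2 change of 0.00. Cdk1, the mitotic kinase, was at 258 and 244 TPM in Setd2D/D and 193 and 201 TPM in Setd2f/f (limma log2 change 0.35, adjusted p = 0.381). Its partner Ccnb1 was at 149 and 127 TPM in Setd2D/D and 112 and 104 TPM in Setd2f/f (adjusted p = 0.436). Ccne2, a partner of CDK2, was at 28.4 and 30.6 TPM in Setd2D/D and 37.5 and 36.2 TPM in Setd2f/f (adjusted p = 0.491). Ccnd2, the D-type cyclin that CDK4 and CDK6 use in many blood cells, overlapped, at 107 and 93.5 TPM in Setd2D/D and 74.0 and 130 TPM in Setd2f/f, although in the authors' deposited table its log2 change is -0.49 (FDR 0.0117).

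Of the 13 pocket proteins and E2F factors, the targets and effectors of this axis, 6 lay above and 7 below 0 (median log2 change -0.06). E2f2 was at 7.65 and 19.9 TPM in Setd2D/D and 21.5 and 15.9 TPM in Setd2f/f, with a log2 change of -0.73 (FDR 0.000811) in the authors' deposited table. Its TPM values overlapped between genotypes, with Setd2D/D replicate 1 low. E2f1 was at 25.1 and 26.6 TPM in Setd2D/D and 31.4 and 34.2 TPM in Setd2f/f, E2f6 at 49.8 and 50.5 TPM in Setd2D/D and 42.4 and 42.2 TPM in Setd2f/f, and the dimer partner Tfdp1 at 269 and 245 TPM in Setd2D/D and 194 and 226 TPM in Setd2f/f. None of these 3 passed limma (adjusted p between 0.466 and 0.534) or the FDR of the authors' deposited table.

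Among 18 polycomb repressors of the Ink4 locus the median log2 change was -0.16, with 7 above and 11 below 0. Pcgf2, which encodes the polycomb ring protein Mel18, was at 3.75 and 5.24 TPM in Setd2D/D and 24.2 and 17.3 TPM in Setd2f/f. Both Setd2D/D libraries were far below both Setd2f/f libraries, with a limma log2 change of -1.98 (adjusted p = 0.204) and an FDR of 0.000113 in the authors' deposited table. Bmi1, its close relative and a known repressor of Cdkn2a in stem cells, was at 38.3 and 38.1 TPM in Setd2D/D and 64.9 and 56.3 TPM in Setd2f/f (limma adjusted p = 0.308, FDR 0.0802 in the authors' deposited table). Phc2 was at 32.8 and 38.6 TPM in Setd2D/D and 49.7 and 45.5 TPM in Setd2f/f. Cdkn2a and Cdkn2b were listed at 0 in these same libraries.

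Of 23 p53 targets other than Cdkn1a, 20 passed the filter, 9 above and 11 below 0 (median log2 change -0.03), and 0 passed either test. Phlda3 was at 1.86 and 1.54 TPM in Setd2D/D and 5.52 and 8.70 TPM in Setd2f/f, and Bax, a mediator of apoptosis, at 45.6 and 45.3 TPM in Setd2D/D and 60.4 and 66.4 TPM in Setd2f/f. Pmaip1, the apoptosis gene Noxa, was at 2.95 and 3.0 TPM in Setd2D/D and 0.940 and 0.990 TPM in Setd2f/f. These targets thus lay on both sides, with limma adjusted p between 0.329 and 0.428.

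Of 20 transcription regulators of the inhibitor genes, 7 lay above and 13 below 0 (median log2 change -0.06), and 0 passed either test. Foxo3, which is known to activate Cdkn1b, was at 37.3 and 40.1 TPM in Setd2D/D and 56.9 and 47.7 TPM in Setd2f/f. Gfi1b was at 33.6 and 44.7 TPM in Setd2D/D and 23.5 and 18.5 TPM in Setd2f/f, and Klf4, an activator of Cdkn1a, at 4.99 and 5.91 TPM in Setd2D/D and 3.46 and 0.960 TPM in Setd2f/f. These 3 were named for the smallest limma p of the list, with adjusted p between 0.355 and 0.482. Each separated by genotype, as did 44.3% of all genes tested.

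The 12 genes of inhibitor turnover (median log2 change 0.04), the 11 other kinase brakes and activators (0.01) and the 16 proliferation genes (0.03) had 0 members past either test. By limma, 7 turnover genes lay above and 5 below 0, as did 6 and 5 brakes and activators, and 8 and 8 proliferation genes. The genes named here had the smallest limma p of their list, with adjusted p between 0.402 and 0.579. Pcna, which marks p21 for destruction during replication, was at 534 and 479 TPM in Setd2D/D and 644 and 586 TPM in Setd2f/f. Skp1a, part of the ligase that degrades p27, was at 274 and 271 TPM in Setd2D/D and 309 and 320 TPM in Setd2f/f, and Rnf123, part of another p27 ligase, at 33.3 and 41.3 TPM in Setd2D/D and 42.1 and 57.7 TPM in Setd2f/f. Cdc25a, the phosphatase that activates CDK2, was at 59.3 and 52.9 TPM in Setd2D/D and 45.9 and 44.7 TPM in Setd2f/f, Ccnh at 95.4 and 93.2 TPM in Setd2D/D and 89.4 and 67.7 TPM in Setd2f/f, and Cdkn3, a phosphatase of CDK2, at 7.06 and 16.7 TPM in Setd2D/D and 20.1 and 18.1 TPM in Setd2f/f. Of the mitosis genes in the proliferation list, Cenpe was at 35.2 and 33.9 TPM in Setd2D/D and 23.8 and 25.0 TPM in Setd2f/f, Aurka at 57.9 and 69.2 TPM in Setd2D/D and 52.4 and 46.3 TPM in Setd2f/f, and Tpx2 at 99.1 and 112 TPM in Setd2D/D and 82.4 and 91.0 TPM in Setd2f/f. The summed level of the proliferation list was 2331 and 2450 TPM in Setd2D/D, against 2291 and 2501 TPM in Setd2f/f, and so did not separate the genotypes.

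**Figure D4:**
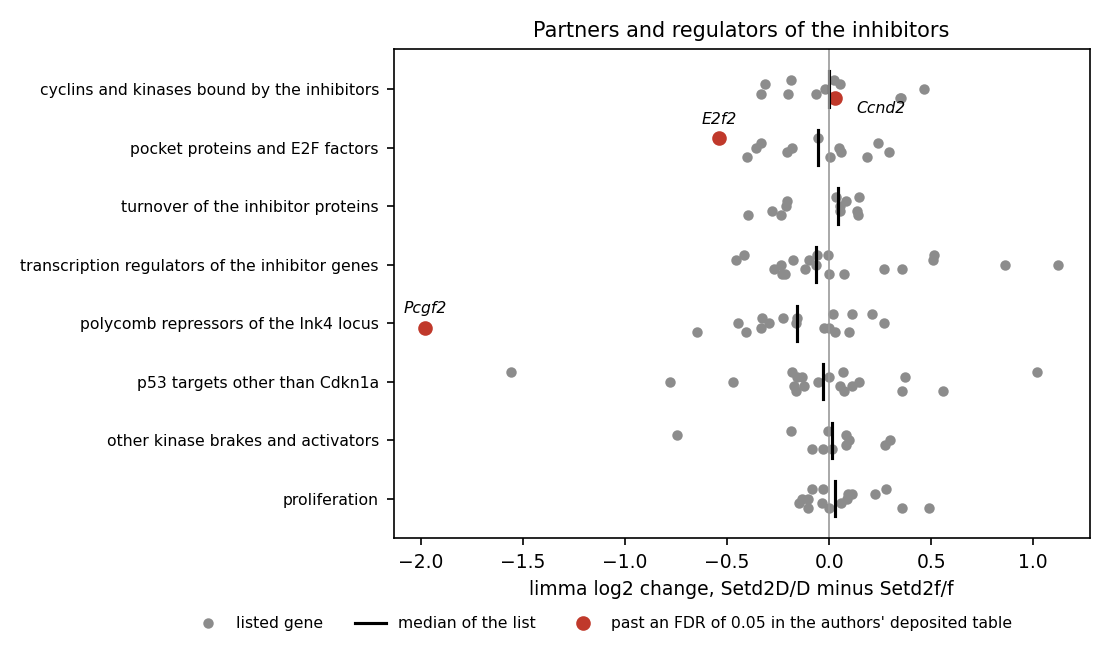
Limma log2 change, Setd2D/D minus Setd2f/f (horizontal axis), of the listed genes that passed the filter, in 8 lists of partners and regulators (vertical axis), with the median of each list as a black line and genes past an FDR of 0.05 in the authors' deposited table in red. List medians lie between -0.16 and 0.04, and Pcgf2 lies lowest at -1.98.

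Across processing settings Cdkn2c kept its direction. The limma log2 change lay between -1.98 and -1.27 in 14 alternatives, both ends coming from leaving out a Setd2f/f library: dropping Setd2f/f replicate 1 gave -1.27, and dropping Setd2f/f replicate 2 gave -1.98. Without Setd2D/D replicate 1, the library that stood apart, it was -1.56. The adjusted p lay between 0.198 and 0.949, so that Cdkn2c did not pass limma over all genes in any of them.

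**Figure D5:**
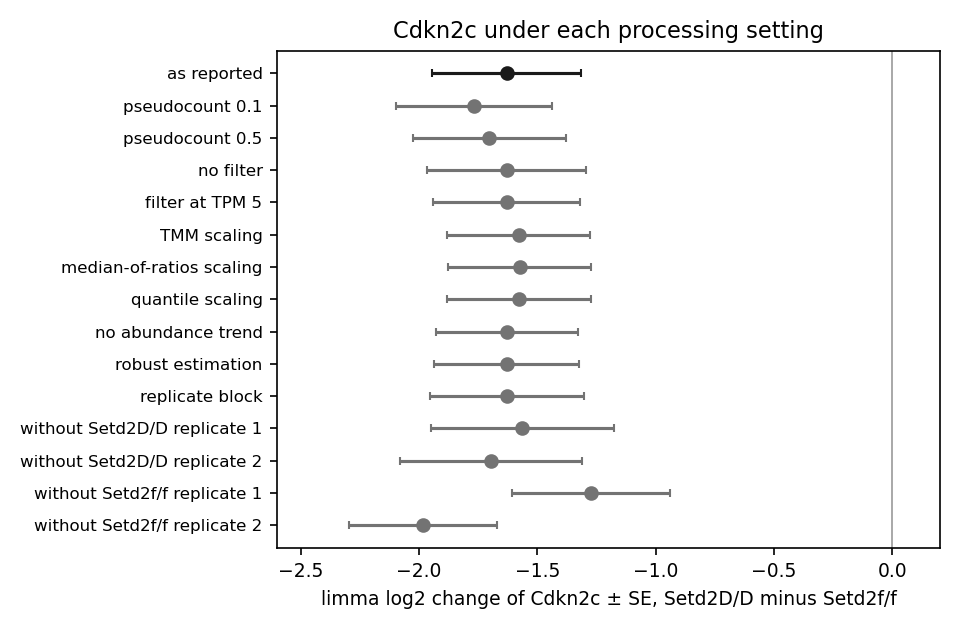
Limma log2 change of Cdkn2c, Setd2D/D minus Setd2f/f, with its SE (horizontal axis), as reported and under 14 other settings (vertical axis). All values lie between -1.98 and -1.27.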

How the data were processed

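LSK cells were profiled by mRNA-seq as 2 Setd2D/D and 2 Setd2f/f libraries. The authors deposited TPM values for 46517 genes. These are shares of each library's total, so read depth is unknown. For 23955 genes the authors' deposited table holds a ratio (fold change), its log2 value, a test score, a p-value and the FDR, which were taken over unaltered. The submitters' processing notes name Cutadapt, RSEM, edgeR and mm10, giving neither their roles nor versions. Gene names split by a comma were rejoined in 5 and 2 rows.

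The fit used limma 3.58.1 (R 4.3.3) on log2(TPM + 1) of the 14755 genes that reached 1 TPM in at least 2 libraries. Genotype was the single term, variances followed a trend with abundance, and 2-sided p-values were adjusted by Benjamini-Hochberg, with a threshold of 0.05. The step was tested on simulated data. Positions are from GENCODE M21 on GRCm38 (46005 identifiers matched), and promoter sequences from RefSeq on GRCm38.p6.

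The members and lists were chosen with earlier results of these data known. Named genes are the 7 members, Setd2, up to 3 genes per list with the smallest limma p at a mean TPM of at least 1, listed genes past the deposited FDR, the 3 genes most like each member, and neighbours within 100 kb. A few genes that these rules or the marker lists would include are not reported here.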

Additional observations from a re-analysis of the deposited data

How the results depend on the processing

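The limma log2 changes of the members and the counts of genes passing limma were recomputed under 14 alternatives. All other values are given under the reported setting alone. The alternatives were 2 smaller pseudocounts (0.1 and 0.5), the low-value filter dropped or raised to TPM 5, 3 scalings (TMM, median of ratios, quantile), the variance trend removed, robust variances, replicate number as a block, and 4 fits lacking 1 library. The number of genes past the threshold, 10 as reported, was 3 with a pseudocount of 0.1, 0 with no filter, 19 without the trend, 0 with the replicate block, and between 0 and 0 when any 1 library was left out, with the lone library of its genotype assumed to vary like the other pair. With no filter 2035 genes and with the block 1508 genes had an unadjusted p under 0.05. The replicate block left the log2 change of Cdkn2c at -1.63 (adjusted p = 0.360) and changed no call of a member. Deviations of same-numbered libraries correlated at r = 0.04 across genes, so that the numbers gave no sign of pairing. Of the members, Cdkn1a changed sign without Setd2D/D replicate 2 (-0.036, and at most 0.44 in the other settings) and Cdkn1b without Setd2f/f replicate 2 (-0.052, and at most 0.26). Cdkn1c (-0.45 to -0.07), Cdkn2c (-1.98 to -1.27) and Cdkn2d (-0.25 to -0.02) kept their sign in all 14 alternatives. Listed genes past the threshold numbered 0 in every setting, with 5 to 15 under an unadjusted p of 0.05. With 2 libraries a genotype and unknown depth, changes within the intervals given for Cdkn1a, Cdkn1b, Cdkn1c and Cdkn2d remain possible. These intervals are not limits of detection: Cdkn2c, at -1.63, did not pass limma either (adjusted p = 0.276 as reported).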
